A study of Mus musculus with 10 samples.

Results

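The 10 genes of the smooth muscle contractile apparatus described here were followed through RNA sequencing of 10 mouse gastric tumours, 5 called inflamed and 5 called desert by the submitters. The genes were Myh11, Des, Cnn1, Tagln, Actg2, Smtn, Myocd, Synm, Lmod1 and Acta2, chosen by symbol, and all 10 were present in a table of 56748 genes. Expression was given as FPKM, the number of reads on a gene scaled by gene length and library size, with 1 library per tumour. The inflamed tumours carried Cre recombinase, switched on by tamoxifen and driven by Tff1, a gene of the gastric surface epithelium, with both Apc and Trp53 floxed, so that the labelled genotype is Tff1-CreERT2;Apcfl/fl;Trp53fl/fl. Desert tumours grew as orthotopic allografts, and their labelled genotype is wild type, without word on whether host or graft is meant (not given in the sources used here). All 10 tumours came from the stomach. Age, sex and time after induction or grafting are likewise not given in the sources used here. Genotype and way of making changed together with tumour type, and these cannot be told apart. Whether the tumours came from separate animals was not stated, so p-values measure only the spread between these samples.

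Smooth muscle contracts when a myosin carrying the heavy chain MYH11 moves along filaments built from the smooth muscle actins ACTA2 and ACTG2, of which ACTG2 is the form typical of the gut wall. Calponin, transgelin, smoothelin and leiomodin bind these actin filaments, and desmin and synemin form the intermediate filaments that tie the apparatus together. The program is switched on by serum response factor, which binds CArG boxes in its target promoters, together with its co-activator myocardin. In the stomach these genes are expressed in the muscle layers of the wall and in blood vessel walls, and ACTA2 is also made by myofibroblasts and pericytes. In bulk tumour RNA, a lower level from fewer cells of a type cannot be told apart from less RNA per cell.

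Promoter sequences were searched for the letters of the serum response factor site and for similar letters. The RefSeq promoter table (GRCm38.p6) held 6 of the 10 genes, namely Des, Lmod1, Synm, Cnn1, Smtn and Acta2, and the 250 bases before each annotated start were read. A complete CArG box (CC, then 6 letters that are each A or T, then GG) was in 0 of the 6 windows and in 1.47% of all 32851 windows of that length. A match with exactly 1 of the 6 central letters being C or G, which leaves out complete boxes, was in 2 of the 6 windows. It was in 7.24% of all windows. The MCAT element CATTCC, the letters bound by TEAD factors, was in 3 of the 6 windows on either strand, against 12.6% of all windows. In Acta2, CCCTATATGG began at position -84 and CCTTGTTTGG at position -34, counted from the start. In Synm, CCTCATAAGG began at position -239. The MCAT letters began at -146 in Acta2, -130 in Lmod1 and -222 in Smtn. Those 4 windows are shown 5′ to 3′ on the gene's own strand, with the CArG-like and MCAT letters in capitals (GGAATG is CATTCC on the other strand). They lie at chr19:34255374-34255623 (minus strand, Acta2), chr7:67759743-67759992 (minus strand, Synm), chr1:135324563-135324812 (plus strand, Lmod1) and chr11:3539293-3539542 (minus strand, Smtn). A match is a description of letters and not a measured binding site. Bases outside these windows were not read.
Acta2: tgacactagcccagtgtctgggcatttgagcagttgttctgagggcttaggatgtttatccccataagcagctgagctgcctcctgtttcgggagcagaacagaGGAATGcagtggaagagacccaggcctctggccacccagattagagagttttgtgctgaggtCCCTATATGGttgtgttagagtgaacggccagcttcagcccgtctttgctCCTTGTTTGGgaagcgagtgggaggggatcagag
Synm: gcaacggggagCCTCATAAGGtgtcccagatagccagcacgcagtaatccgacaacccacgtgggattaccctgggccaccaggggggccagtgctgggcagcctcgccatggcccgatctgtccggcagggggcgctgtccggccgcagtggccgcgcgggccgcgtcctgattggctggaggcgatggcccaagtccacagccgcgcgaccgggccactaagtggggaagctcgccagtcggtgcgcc
Lmod1: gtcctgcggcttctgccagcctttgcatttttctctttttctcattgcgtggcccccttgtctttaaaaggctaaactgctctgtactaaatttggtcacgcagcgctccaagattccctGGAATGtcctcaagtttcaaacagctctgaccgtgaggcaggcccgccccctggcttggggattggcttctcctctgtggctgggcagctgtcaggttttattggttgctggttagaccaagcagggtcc
Smtn: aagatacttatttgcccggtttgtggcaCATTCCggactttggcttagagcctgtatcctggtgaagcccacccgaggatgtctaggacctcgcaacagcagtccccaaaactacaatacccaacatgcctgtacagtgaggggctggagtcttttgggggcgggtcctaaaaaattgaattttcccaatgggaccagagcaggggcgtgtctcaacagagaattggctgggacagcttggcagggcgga

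The libraries held 15474313 to 15975770 reads in genes in inflamed tumours and 14148147 to 16951640 in desert tumours. Genes were compared with limma on log2(FPKM + 1), as inflamed minus desert, and called at a Benjamini-Hochberg adjusted p under 0.05 over 16750 genes with a mean of at least 0.5 FPKM. That scale understates the change of low genes. The groups differed across the transcriptome, with 31.0% of tested genes higher and 31.2% lower in inflamed tumours. The counts of every list below are to be read beside these shares. Against this background, 9 of the 10 contractile genes entered the test, 6 were called higher (Actg2, Acta2, Myh11, Cnn1, Lmod1 and Tagln), 0 were called lower, and Des, Smtn and Synm were not called. Myocd was below the filter. Cnn1, Lmod1 and Tagln passed the filter through their inflamed levels alone, and such genes had to differ in order to be tested. The lists below hold genes of this kind too, and their counts include them. Among them are Pgc, Cblif, Chrm3, Tac1, Vip and Foxf1, with a desert mean under 0.5 FPKM, and Twist1, with an inflamed mean under 0.5 FPKM. The median difference of the 9 genes was 2.24, against -0.01 over all tested genes. Every inflamed tumour was above every desert tumour for the 6 called genes, as for 24.4% of all tested genes, and likewise for Myocd.

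**Figure D1:**
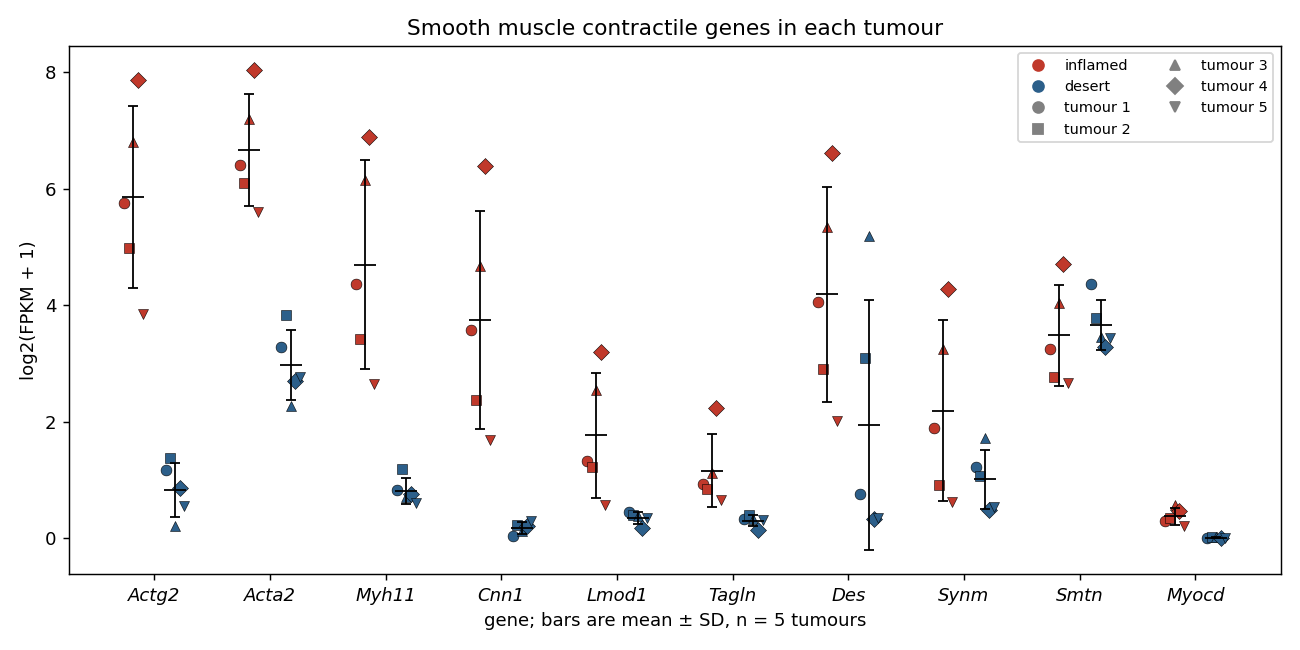
Log2(FPKM + 1) of each contractile gene in each of the 5 inflamed (red) and 5 desert (blue) tumours, with the marker shape giving the tumour number and bars the mean ± SD. Inflamed tumour 4 is the highest and inflamed tumour 5 the lowest inflamed tumour for 9 genes, and desert tumours 2 and 3 stand above the other desert tumours for Des.

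Both smooth muscle actins were called higher in inflamed tumours. Actg2 (ENSMUSG00000059430, chromosome 6, 83489887 to 83513247 in the deposited table), enteric smooth muscle actin, measured 53.1, 30.5, 111.2, 234.2 and 13.5 FPKM in inflamed tumours 1 to 5 and 1.26, 1.59, 0.160, 0.810 and 0.474 FPKM in desert tumours 1 to 5. The lowest inflamed tumour thus stood well above the highest desert tumour. The desert values of Actg2 rest on 30, 42, 4, 24 and 14 reads, so they are imprecise. The log2 difference was 5.02 (SE 0.63, limma adjusted p = 4.66e-05), and the means were 88.5 ± 89.4 and 0.857 ± 0.576 FPKM (SD, n = 5 each). Acta2 (ENSMUSG00000035783, chromosome 19, 34218490 to 34232990), the smooth muscle actin shared by vessels, gut and myofibroblasts, measured 84.2, 67.7, 146.8, 262.7 and 47.4 FPKM in inflamed and 8.78, 13.2, 3.82, 5.48 and 5.86 FPKM in desert tumours. It too separated the groups, but the desert tumours kept a clear signal. On the log2 scale it differed by 3.70 (SE 0.44, limma adjusted p = 3.16e-05), with means of 121.8 ± 87.1 and 7.43 ± 3.69 FPKM. On the linear scale the ratio of group means was 103.2 for Actg2 and 16.4 for Acta2.

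Myh11 (ENSMUSG00000018830, chromosome 16, 14012399 to 14109236), the smooth muscle myosin heavy chain and a gene largely restricted to mature smooth muscle, measured 19.6, 9.70, 70.1, 117.6 and 5.29 FPKM in inflamed tumours. The desert tumours measured 0.772, 1.28, 0.638, 0.685 and 0.520 FPKM. No desert tumour reached the lowest inflamed value. On the log2 scale Myh11 differed by 3.88 (SE 0.70, limma adjusted p = 0.000597), with means of 44.5 ± 48.4 and 0.779 ± 0.294 FPKM and a ratio of means of 57.1.

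Cnn1 (ENSMUSG00000001349, chromosome 9, 22010512 to 22020926) encodes calponin, an actin-binding protein that restrains the myosin motor. It measured 10.9, 4.21, 24.6, 83.0 and 2.21 FPKM in inflamed tumours and 0.0238, 0.172, 0.0908, 0.154 and 0.231 FPKM in desert tumours. The desert values rest on 1, 8, 4, 8 and 12 reads recovered from the FPKM steps, so they are imprecise. Cnn1 differed by 3.56 (SE 0.73, limma adjusted p = 0.00137). Lmod1 (ENSMUSG00000048096, chromosome 1, 135252545 to 135295803), leiomodin, which starts new actin filaments, was lower in level and moved in the same direction. It measured 1.51, 1.32, 4.87, 8.19 and 0.480 FPKM in inflamed and 0.363, 0.313, 0.299, 0.133 and 0.267 FPKM in desert tumours. Inflamed tumour 5 was close to the desert tumours but still above all of them. Lmod1 differed by 1.42 (SE 0.42, limma adjusted p = 0.0126).

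Tagln (ENSMUSG00000032085, chromosome 9, 45840917 to 45847356) encodes transgelin, or SM22, an actin cross-linker. It measured 0.914, 0.806, 1.18, 3.70 and 0.584 FPKM in inflamed and 0.262, 0.326, 0.250, 0.106 and 0.239 FPKM in desert tumours, from 19 to 112 and 4 to 11 reads. The groups did not overlap, although both were low. Tagln differed by 0.86 on the log2 scale (SE 0.26, limma adjusted p = 0.0128). In the GENCODE M21 annotation 67.9% of the exonic bases of Tagln are shared with genes of the opposite strand, Pcsk7 and Gm48529. The level of Tagln is therefore uncertain, because strand use and the counting of shared bases are not given in the sources used here. Under quantile normalization the difference was 0.65 and missed the threshold (limma adjusted p = 0.0513), and over the 19 alternatives that tested it the adjusted p ran from 0.00209 to 0.0513.

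Des and Synm, the intermediate filament genes, were not called. Des (ENSMUSG00000026208, chromosome 1, 75336973 to 75345223), desmin, is shared by smooth, skeletal and cardiac muscle. It measured 15.7, 6.53, 39.5, 96.8 and 3.03 FPKM in inflamed and 0.694, 7.57, 35.6, 0.252 and 0.267 FPKM in desert tumours. Desert tumours 2 and 3 lay within the inflamed range, and the other 3 desert tumours lay below all inflamed tumours. The log2 difference was 2.24 (SE 1.09, limma adjusted p = 0.0957). Without desert tumour 3 it was 3.05 (limma adjusted p = 0.0175), and without desert tumours 2 and 3 it was 3.71 (limma adjusted p = 0.00845), an alternative added after the data were seen. Over all alternatives the adjusted p of Des ran from 0.00845 to 0.448.

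Several skeletal muscle genes were, like Des, highest in desert tumours 2 and 3. The summed FPKM of 14 skeletal and cardiac muscle genes was 4.45, 91.2, 309.9, 1.86 and 5.65 in desert tumours 1 to 5 and 1.49 to 4.26 in inflamed tumours. Acta1, skeletal muscle actin, measured 41.6 and 106.0 FPKM in desert tumours 2 and 3, and Myh4, a fast skeletal myosin, 10.5 and 63.5 FPKM. Tnnc2, a troponin of the same list, was listed at 0 in both. It was highest in desert tumour 1, at 0.326 FPKM from 4 reads. Cardiac genes of the list were low and differed among themselves. Tnnt2 measured 0.546, 0.554, 0.200, 0.495 and 0.469 FPKM in desert tumours 1 to 5. Actc1 measured 0.764 FPKM in desert tumour 2 and was listed at 0 in the other desert tumours. Myh6 was above 0 only in desert tumour 3, from 3 reads. Myh4, Mylpf, Tnnc2, Tnnt2, Actc1 and Myh6 were singled out after their values were seen. In inflamed tumours Myh1, Myh2, Tnnc2, Myog and Myh6 were listed at 0, and Pax7 was listed at 0 in desert tumours. Of 7 striated genes tested, 0 were called higher and 1, the myosin light chain Mylpf, was called lower in inflamed tumours (-1.63, SE 0.56, limma adjusted p = 0.0261). Acta1 (-2.07, SE 1.26, limma adjusted p = 0.174) and Tnnt3, a fast troponin (-1.95, SE 1.0, limma adjusted p = 0.112), were not called. Among desert tumours, Actg2 (1.59 FPKM), Myh11 (1.28 FPKM) and Acta2 (13.2 FPKM) were also highest in tumour 2, but in tumour 3, where Des and the striated sum peaked, Actg2 and Acta2 were at their lowest and Myh11 at 0.638 FPKM. The part of striated muscle in the Des values was not tested further.

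**Figure D2:**
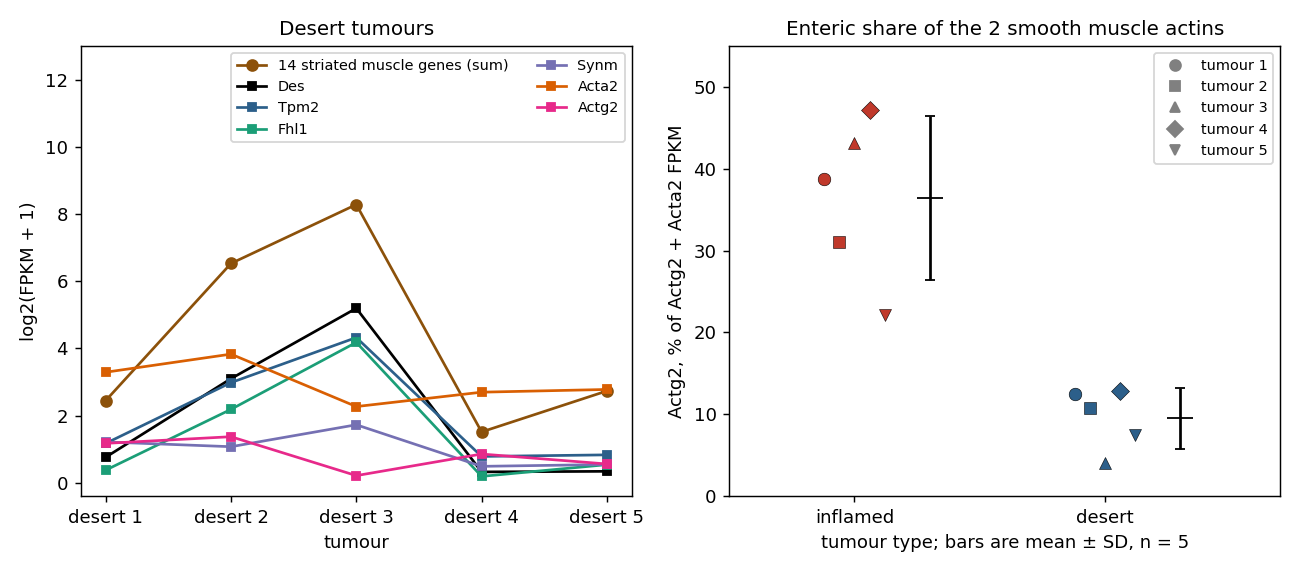
Left, log2(FPKM + 1) of 6 genes and of the summed 14 striated muscle genes in desert tumours 1 to 5. Des, Tpm2, Fhl1 and Synm peak with the striated sum in tumour 3, and Actg2 and Acta2 do not. Right, Actg2 as a percentage of the summed Actg2 and Acta2 FPKM in each tumour, with mean ± SD (n = 5 per type), where the groups do not overlap.

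Synm (ENSMUSG00000030554, chromosome 7, 67379908 to 67409490) encodes synemin, which links desmin filaments to attachment sites. It measured 2.73, 0.890, 8.50, 18.4 and 0.539 FPKM in inflamed and 1.32, 1.11, 2.31, 0.404 and 0.459 FPKM in desert tumours. The groups overlapped, since inflamed tumours 2 and 5 lay within the desert range. Among desert tumours Synm was highest in tumour 3, as Des was. The log2 difference was 1.18 (SE 0.63, limma adjusted p = 0.126). Without inflamed tumour 5 it was 1.58 (limma adjusted p = 0.043), and the adjusted p over all alternatives ran from 0.043 to 0.765.

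Smtn (ENSMUSG00000020439, chromosome 11, 3467523 to 3490612), smoothelin, binds actin in contractile smooth muscle. It measured 8.53, 5.85, 15.5, 25.0 and 5.34 FPKM in inflamed and 19.7, 12.8, 9.91, 8.73 and 9.82 FPKM in desert tumours. It was the contractile gene with the highest desert level, and its group means of 12.05 ± 8.31 and 12.2 ± 4.46 FPKM were close. The log2 difference was -0.18 (SE 0.38, limma adjusted p = 0.706). Without inflamed tumours 3 and 4, an alternative added after the data were seen, Smtn was called lower in inflamed tumours, at -0.77 (limma adjusted p = 0.0266). Over all alternatives its difference ran from -0.77 to 0.03 and its adjusted p from 0.0266 to 0.999. Of the exonic bases of Smtn, 16.3% are shared with opposite-strand genes in GENCODE M21.

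Myocd (ENSMUSG00000020542, chromosome 11, 65067387 to 65160815) encodes myocardin, the co-activator named above. It measured 0.221, 0.268, 0.481, 0.378 and 0.162 FPKM in inflamed and 0, 0.0183, 0.00967, 0 and 0 FPKM in desert tumours. These values come from 162 reads over the inflamed and 3 reads over the desert libraries. Every inflamed tumour was above every desert tumour, at a level below the filter. With no filter its limma adjusted p was 0.00158, and with limma voom on the recovered reads it was 4.55e-05. Highest in tumour 3 and not in tumour 4, it was the contractile gene that did not follow the order of the others across inflamed tumours.

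The other 9 contractile genes shared a single order among the inflamed tumours, with tumour 4 highest, then 3, 1, 2 and 5. This order was found in 9 of 9 tested contractile genes and in 1.32% of all tested genes (221 of 16750). The same 9 genes kept it after rescaling to TPM and in recovered reads. The span was wide, with a ratio of the highest to the lowest inflamed tumour of 37.6 for Cnn1, 34.1 for Synm, 32.0 for Des, 22.2 for Myh11, 17.4 for Actg2 and 17.1 for Lmod1. It was 6.34 for Tagln, 5.55 for Acta2, 4.69 for Smtn and 2.97 for Myocd. The median over all genes tested with a value above 0 in each inflamed tumour was 1.56 (16037 genes). For 8 of these genes the highest inflamed tumour was thus over 5 times the lowest.

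Summed over the 10 genes, inflamed tumours 1 to 5 held 197.4, 127.8, 422.8, 850.2 and 78.5 FPKM and desert tumours 33.2, 38.4, 53.1, 16.8 and 18.1 FPKM. Lists of other cell types differed in how far they shared this profile. Fibroblast genes (12) summed to 339.0, 239.9, 244.3, 119.4 and 179.4 FPKM in inflamed tumours, lowest in tumour 4 where the contractile sum was highest. Endothelial genes (8) summed to 45.3, 49.1, 40.9, 18.1 and 25.6 FPKM, again lowest in tumour 4. Vascular mural genes (10), which mark pericytes and vessel muscle, ran from 42.9 FPKM in tumour 5 to 79.6 FPKM in tumour 3, and 3 of the 10 had the exact order of the contractile genes. Parietal and chief cell genes (8) peaked at 7258.1 FPKM in tumour 3 and general epithelial genes (7) at 6535.5 FPKM in tumour 4. Most of the first peak came from Pgc (6736.9 FPKM) and most of the second from Krt8 and Krt19 (2542.3 and 2216.4 FPKM). Not every epithelial gene peaked in tumour 4, and Cldn7 was lowest there, at 58.1 FPKM. The striated muscle sum, at 1.93, 2.58, 2.89, 4.26 and 1.49 FPKM, was low but was also highest in tumours 4 and 3 and lowest in tumour 5.

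**Figure D3:**
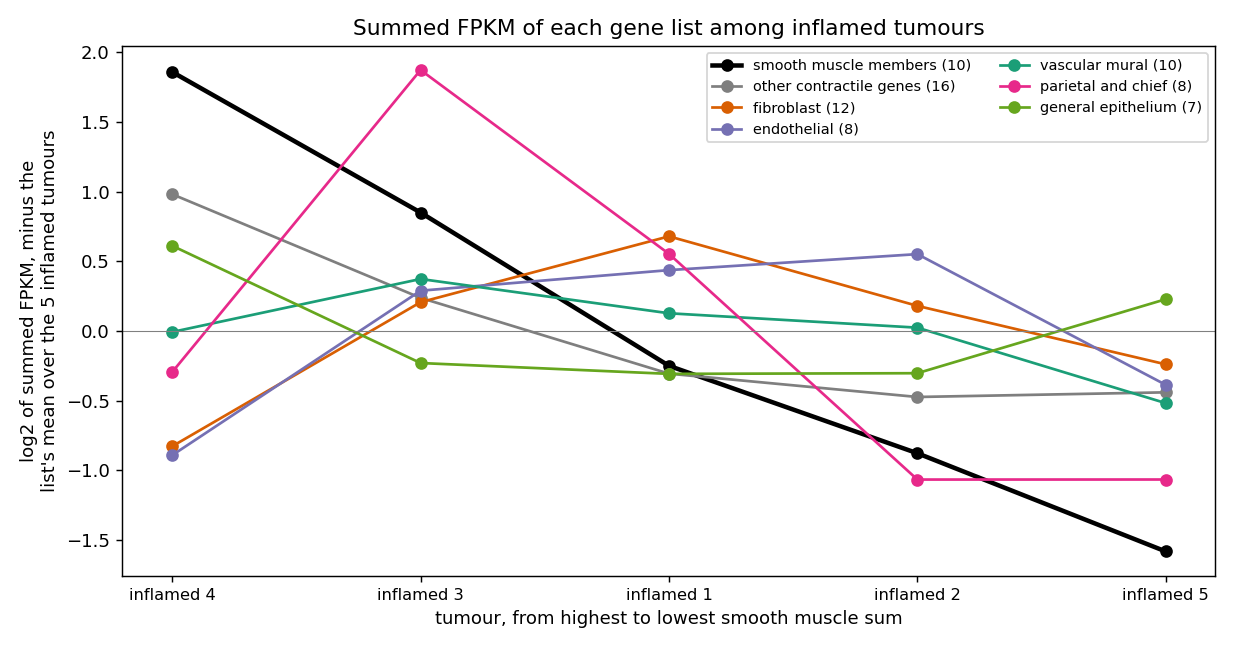
Log2 of the summed FPKM of each gene list in the 5 inflamed tumours, less the list's own mean, with tumours placed from the highest to the lowest contractile sum. The contractile line falls from tumour 4 to tumour 5, whereas the fibroblast and endothelial lines are at their lowest in tumour 4.

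Genes of enteric neurons, which lie between the muscle layers of the gut wall, differed among themselves across the inflamed tumours. Vip, a neuropeptide, measured 2.07, 0.0523, 7.20, 6.93 and 0 FPKM in inflamed tumours and was listed at 0 in all desert tumours, as was Chat. Elavl4 followed with 0.0527, 0.0110, 0.159, 0.195 and 0.0113 FPKM. Both were thus highest in tumours 3 and 4. Tac1, in contrast, was highest in tumour 5 (3.68 FPKM) and lowest in tumour 3 (0.993 FPKM), Chat was highest in tumour 5 (0.104 FPKM) and S100b in tumour 2 (6.40 FPKM). Vip, Chat and Elavl4 were singled out after their values were seen. Elavl4 and Chat were below the filter and rest on 1 to 16 and 2 to 8 reads per inflamed tumour. Their orders among the tumours are therefore imprecise. The sum of all 13 enteric neural and glial genes was 12.7, 13.9, 18.6, 19.1 and 9.44 FPKM in inflamed tumours, highest in tumours 4 and 3 and lowest in tumour 5. In desert tumours the sum was 16.3 to 22.2 FPKM, most of it from Uchl1 alone. Uchl1 measured 12.1 to 18.6 FPKM in desert and 2.62 to 4.15 FPKM in inflamed tumours. Among 6 tested, 4 were called higher and 2 lower in inflamed tumours, with a median difference of 0.84. Tac1, a neuropeptide precursor (1.64, SE 0.19, limma adjusted p = 2.76e-05), and S100b, a glial gene (0.89, SE 0.30, limma adjusted p = 0.0254), were higher, and Uchl1, a neuronal ubiquitin hydrolase (-1.98, SE 0.14, limma adjusted p = 6.07e-07), was lower. The call of S100b was lost in 7 and that of Vip in 11 alternatives. The part of wall nerves or of the muscle layer in the order of the inflamed tumours was not tested.

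The balance between the smooth muscle actins also differed, in a ratio that library scaling does not touch. Actg2 made up 38.7, 31.1, 43.1, 47.1 and 22.1% of the summed Actg2 and Acta2 FPKM in inflamed tumours and 12.5, 10.7, 4.01, 12.9 and 7.49% in desert tumours. All inflamed tumours were above all desert tumours, and among inflamed tumours the share had the order of the contractile genes. The means were 36.4% ± 9.97 and 9.52% ± 3.75 (SD, n = 5 each), a difference of 26.9 percentage points (exact two-sided permutation test, p = 0.00794, the smallest that 5 against 5 allows). Of all 6 actins together, Actg2 and Acta2 made up 12.9% ± 7.56 in inflamed and 0.553% ± 0.307 in desert tumours. The coding sequences of Acta2 and Actg2 in GENCODE M21 are 84.2% identical and those of Acta1 and Actg2 84.9%, and the counting of reads that match several actins is not given in the sources used here. In desert tumour 3, Acta1 stood at 106.0 FPKM while Actg2 stood at 0.160 FPKM. That Actg2 value, and with it the share of 4.01%, rests on 4 Actg2 reads.

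Among inflamed tumours the mean level per length ran Acta2, Actg2, Myh11, Des, Cnn1, Smtn, Synm, Lmod1, Tagln and Myocd, from 121.8 down to 0.302 FPKM. In desert tumours the order began with Smtn, Des and Acta2 (12.2, 8.88 and 7.43 FPKM) and ended with Tagln, Cnn1 and Myocd (0.236, 0.134 and 0.00560 FPKM). In inflamed tumours each pair of neighbours in this order differed by less than the larger of their SDs. In desert tumours the steps from Acta2 to Synm, Myh11 to Lmod1, Tagln to Cnn1 and Cnn1 to Myocd exceeded it. The place of Tagln in both orders is uncertain, because 67.9% of its exonic bases are shared with opposite-strand genes.

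A list of 16 further genes of the contractile apparatus was examined, and 11 were called higher, 0 lower and 5 not called, with a median difference of 1.04. Myl9, the regulatory light chain of smooth muscle myosin, rose from 4.45 ± 1.60 FPKM in desert to 97.1 ± 92.2 FPKM in inflamed tumours (log2 difference 3.69, SE 0.56, limma adjusted p = 0.000188). Csrp1, a LIM protein of the actin cytoskeleton, measured 120.2 ± 36.4 against 50.7 ± 3.60 FPKM (1.19, SE 0.17, limma adjusted p = 0.000114). Tpm2, a tropomyosin of smooth and skeletal muscle, measured 17.9, 7.18, 40.4, 87.7 and 7.98 FPKM in inflamed and 1.25, 6.90, 19.0, 0.723 and 0.779 FPKM in desert tumours. Like Des, it was highest in desert tumours 2 and 3. The Tpm2 difference of 2.44 (SE 0.83, limma adjusted p = 0.0245) missed the threshold without inflamed tumour 3 or 4 or without desert tumour 1, 4 or 5 (limma adjusted p from 0.0545 to 0.0599). It also missed it without inflamed tumours 3 and 4 together (1.46, limma adjusted p = 0.151, the highest of any alternative), and was 3.53 without desert tumours 2 and 3 (limma adjusted p = 0.00362). Myl6, the essential light chain shared by muscle and non-muscle myosins, was level at 101.8 ± 43.3 and 89.0 ± 8.46 FPKM (0.11, SE 0.22, limma adjusted p = 0.674).

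Relatives of the contractile genes outside the smooth muscle list, here called non-muscle relatives, went in both directions. Among 10 such genes, 3 were called higher, 4 lower and 3 not called, with a median difference of 0.10. Myh10, a non-muscle myosin heavy chain, was lower in inflamed tumours, at 2.38 ± 0.655 against 24.5 ± 6.57 FPKM (-2.90, SE 0.18, limma adjusted p = 2.66e-07), opposite to Myh11. Tagln2 was higher, at 264.2 ± 95.2 against 107.9 ± 22.8 FPKM (1.24, SE 0.23, limma adjusted p = 0.000766). Of the cytoplasmic actins, Actg1 was lower (-0.63, SE 0.17, limma adjusted p = 0.00853) and Actb was not called (0.36, SE 0.16, limma adjusted p = 0.0786, with differences from -0.29 to 0.44 over the alternatives).

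**Figure D4:**
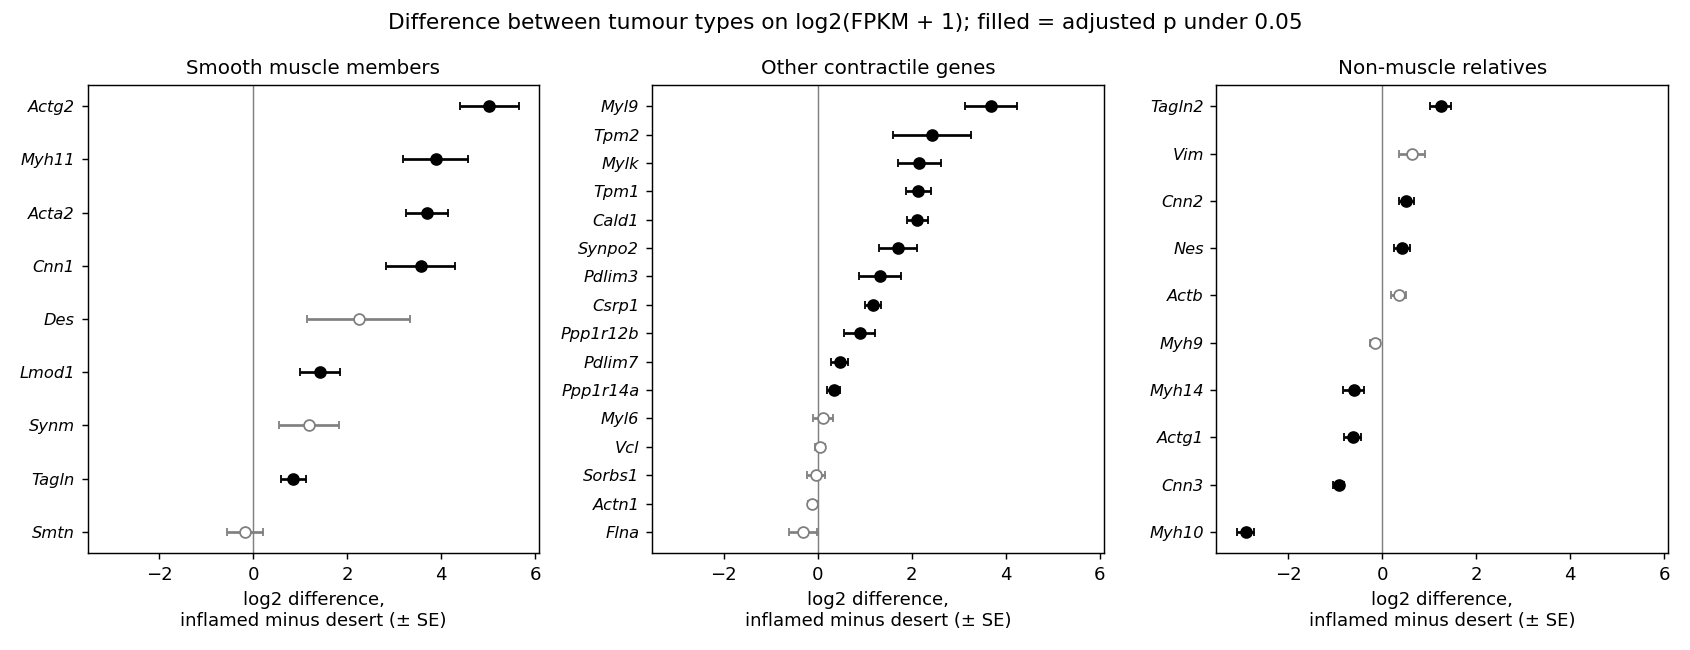
Log2 difference (inflamed minus desert, ± SE) on log2(FPKM + 1) of the 9 tested contractile genes, 16 other contractile genes and 10 non-muscle relatives, with filled points called at adjusted p under 0.05. Called genes lie to the right of 0 in the first and second panels and on both sides of 0 in the third.

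Transcription factors around the program were split. Of 12 genes, 10 were tested, with 6 called higher, 3 lower and 1 not called, and a median difference of 1.28. Srf itself, the partner of myocardin, was slightly higher, at 15.6 ± 2.25 against 10.95 ± 1.53 FPKM (0.47, SE 0.11, limma adjusted p = 0.00377). Its actin-sensing co-activators were lower in inflamed tumours, Mrtfa by -0.35 (SE 0.12, limma adjusted p = 0.0217) and Mrtfb by -0.65 (SE 0.09, limma adjusted p = 0.000108), as was Elk1, a partner of Srf that competes with myocardin (-0.73, SE 0.09, limma adjusted p = 3.99e-05). Barx1, a homeobox factor of stomach mesenchyme, was 11.1 ± 4.83 against 0.584 ± 0.380 FPKM (2.87, SE 0.27, limma adjusted p = 5.68e-06), with the inflamed order of the contractile genes. Foxf1, a forkhead factor of gut mesenchyme, was 7.93 ± 1.22 against 0.225 ± 0.0325 FPKM (2.86, SE 0.11, limma adjusted p = 5.93e-09), a far narrower spread than that of Myh11. Fhl1, a muscle LIM protein, measured 28.8, 29.8, 52.8, 171.1 and 36.2 FPKM in inflamed and 0.298, 3.55, 17.1, 0.142 and 0.454 FPKM in desert tumours (4.15, SE 0.77, limma adjusted p = 0.000743), highest in desert tumours 2 and 3 as Des was. Klf4, known to repress the contractile program and also an epithelial factor, was higher (2.09, SE 0.44, limma adjusted p = 0.00163). Srf, Mrtfa, Mrtfb, Elk1 and Foxf1 were singled out after their values were seen.

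Genes for calcium handling and receptor signalling in smooth muscle gave 8 higher, 2 lower and 1 not called among 11 tested of 15, with a median difference of 1.02. Chrm3, the muscarinic receptor that drives gut contraction, was 3.59 ± 1.06 against 0.108 ± 0.208 FPKM (2.03, SE 0.19, limma adjusted p = 4.82e-06). Unlike the contractile genes, it was lowest in inflamed tumour 4 (1.96 FPKM) and highest in inflamed tumour 1 (4.62 FPKM). Of the 11 tested genes of this list, 1 had the inflamed order of the contractile genes. Atp2a2, the calcium pump SERCA2, was 74.1 ± 1.57 against 35.9 ± 2.08 FPKM (1.02, SE 0.07, limma adjusted p = 4.99e-07), and Rhoa, a GTPase that sensitises contraction to calcium, was higher by 0.68 (SE 0.12, limma adjusted p = 0.000403). Those genes are active in many cell types. Itpr1, an intracellular calcium channel, went the other way, at 3.23 ± 0.432 against 13.1 ± 2.10 FPKM (-1.73, SE 0.12, limma adjusted p = 5.36e-07).

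Markers of cells that share some of these genes were examined beside them. Of all tested genes 31.0% were called higher and 31.2% lower, and the shares called higher in these 3 lists were not far from that. Of 10 mural genes 3 were called higher, 1 lower and 6 not called, with a median difference of 0.19. Rgs5, a pericyte gene, was higher (1.30, SE 0.18, limma adjusted p = 9.99e-05), and Kcnj8, a potassium channel of pericytes, was lower, at 5.75 ± 2.11 against 57.9 ± 22.3 FPKM (-3.13, SE 0.28, limma adjusted p = 4.28e-06). Of 11 fibroblast genes tested 4 were called higher, 1 lower and 6 not called, with a median of 0.79. Dcn, a matrix proteoglycan, was higher (2.31, SE 0.35, limma adjusted p = 0.000198), Twist1 was lower (-2.83, SE 0.41, limma adjusted p = 0.00014) and Col1a1 was not called (0.85, SE 0.38, limma adjusted p = 0.0751). Col3a1 was higher (1.07, SE 0.36, limma adjusted p = 0.0231), and lost the call after rescaling to TPM and without inflamed tumour 1 or desert tumour 1. Of 8 endothelial genes 3 were called higher and 5 not called, with a median of 0.37. These included Tek (1.26, SE 0.16, limma adjusted p = 4.91e-05) and Pecam1 (1.17, SE 0.23, limma adjusted p = 0.00105), while Cdh5 was not called (0.36, SE 0.25, limma adjusted p = 0.228).

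Interstitial cells of Cajal, the pacemakers of gut muscle, gave a mixed reading over 3 tested genes. Kit was higher (1.06, SE 0.22, limma adjusted p = 0.0015), Thbs4 was lower (-1.28, SE 0.41, limma adjusted p = 0.0181, a call lost without desert tumours 2 and 3) and Ano1 was not called (0.56, SE 0.31, limma adjusted p = 0.143). Some epithelial genes were called as well. Of 7 parietal and chief cell genes tested 5 were called higher and 0 lower, led by Pgc, the chief cell pepsinogen (10.42, SE 0.55, limma adjusted p = 7.23e-08), and Cblif, gastric intrinsic factor (7.33, SE 0.33, limma adjusted p = 2.37e-08). Pgc and Cblif passed the filter through their inflamed levels alone. Of 7 general epithelial genes 5 were called higher and 0 lower, among them Krt19 (2.68, SE 0.27, limma adjusted p = 9.1e-06), Cldn7 (2.11, SE 0.25, limma adjusted p = 2.99e-05) and Krt8 (1.51, SE 0.23, limma adjusted p = 0.000167). The part of normal stomach wall in the contractile gene levels of inflamed tumours was not tested.

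Genes whose profile over the 10 tumours lay nearest to that of Myh11 were ranked by root mean square distance of mean-centred log2(FPKM + 1) among 16749 genes. Contractile genes took ranks 1 (Cnn1, distance 0.318), 4 (Acta2, 0.615) and 5 (Actg2, 0.645), whereas Lmod1, Synm, Des, Tagln and Smtn ranked 359, 471, 857, 1472 and 5514. The 5 nearest other genes were Myl9 (0.387), Mir143 (0.504), Adh7 (0.674), Apoa1 (0.694) and Mir145a (0.718). Mir143, a microRNA gene known from smooth muscle, measured 18.9, 3.77, 23.6, 29.2 and 1.94 FPKM in inflamed tumours and was listed at 0 in every desert tumour. It averaged under 10 recovered reads per library, the minimum for voom, so its values are imprecise. Mir145a, the neighbour of Mir143, measured 25.1, 14.4, 64.6, 75.1 and 2.62 FPKM in inflamed and 0.931 to 3.76 FPKM in desert tumours. Whether reads on these genes came from the mature microRNAs is not given in the sources used here. Adh7, an alcohol dehydrogenase of stomach epithelium, measured 4.21, 4.45, 11.8, 31.1 and 3.97 FPKM in inflamed and at most 0.0328 FPKM in desert tumours. Apoa1, an apolipoprotein, measured 5.65, 3.26, 36.7, 39.9 and 11.2 FPKM in inflamed and at most 0.211 FPKM in desert tumours. A small distance in 10 tumours of 2 types reflects the group difference as well as the spread within groups.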

How the data were processed

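Total RNA, extracted with TRIzol per the labels' protocols, was sequenced from 5 inflamed and 5 desert gastric tumours, and the protocol text speaks of 6 tumours, while the series holds 10. The authors deposited FPKM values for 56748 genes, and the submitters' processing notes name mm10. Positions are as the table holds them, since they did not match GRCm38 GENCODE M21, while lengths did. The aligner, counter and strand setting are not given in the sources used here. FPKM times gene length gave whole multiples of 1 step per library (tolerance 0.01), from which reads were recovered. Library totals of 14148147 to 16951640 reads limit precision for genes with few reads.

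Genes averaging 0.5 FPKM or more were compared on log2(FPKM + 1) with limma 3.58.1 in R 4.3.3, with intensity trend and robust moderation, group as the only term, two-sided, Benjamini-Hochberg over 16750 genes, threshold 0.05. The script was tested on simulated data. The Actg2 share was tested by exact permutation over 252 splits. The contractile genes and all 12 gene lists were chosen with earlier results of these data known. Named were all 10 contractile genes, from each list the 2 tested genes that differed most and the 2 with the highest mean, and the 5 genes nearest to Myh11; others are marked in the text. Alternatives were another pseudocount (0.1), no filter, a mean FPKM of at least 5, TPM, quantile and median-of-ratios scaling, plain limma, a replicate block and each library left out; voom on recovered reads was planned too. Leaving out desert tumours 2 and 3 or inflamed tumours 3 and 4 was added after the data were seen. Promoters were read from RefSeq (GRCm38.p6) and overlaps from GENCODE M21, with pandas 2.3.3 and biopython 1.88. No column was left unmapped. Values of 1 gene of the enteric list are not reported here.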

Additional observations from a re-analysis of the deposited data

How the results depend on the processing

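Across up to 21 alternatives per tested gene no direction of a called contractile gene reversed, and Myh11, Cnn1, Actg2, Lmod1 and Acta2 were called in each that tested them. Their log2 differences ran from 2.66 to 4.96 (Myh11), 2.37 to 6.48 (Cnn1), 4.03 to 6.29 (Actg2), 0.69 to 2.89 (Lmod1) and 3.06 to 3.97 (Acta2). The number of contractile genes called higher was 4 with a mean FPKM of at least 5 (6 tested), 5 under quantile normalization and without inflamed tumours 3 and 4, and 6 or 7 otherwise. The number called lower was 1, Smtn, without inflamed tumours 3 and 4. Rescaling to TPM moved the median of all genes to -0.28 (3769 higher, 6989 lower) and quantile normalization to -0.11 (4609 and 6146), against 5197 and 5221.

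Tumours with the same number did not deviate together (r from -0.0737 to 0.0763), so the numbers were not taken as pairs. With the number as a replicate block 6 contractile genes were called, and the Actg2 share differed by 26.9 points (exact sign-flip permutation p = 0.0625, the smallest 5 pairs allow). Leaving out 1 tumour gave 24.2 to 30.5 points.

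Called genes of other lists moved by over 1.5 times in a few settings. Of the 16 contractile genes 7 were called with a mean FPKM of at least 5 or without inflamed tumour 3, desert tumour 4 or desert tumour 5, and 6 without inflamed tumours 3 and 4. Without inflamed tumour 4, 8 fibroblast and 6 endothelial genes were called higher, and 7 fibroblast genes with the block. Enteric genes called higher fell to 2 without inflamed tumour 1, desert tumour 1, 2 or 4, or desert tumours 2 and 3. Mural genes called lower were 2 under TPM, with the block, without inflamed tumour 3 or desert tumour 5 and without inflamed tumours 3 and 4, and 3 under quantile normalization. Non-muscle relatives called higher were 1 under TPM. Cajal genes called higher were 2 with no filter, with voom and without desert tumour 1, and those called lower were 0 without desert tumours 2 and 3. Striated genes called lower were 0 without desert tumour 2, without desert tumours 2 and 3 and without inflamed tumours 3 and 4. Of the 16 contractile genes 1 was called lower under TPM and without inflamed tumours 3 and 4, and 1 epithelial gene was called lower under quantile normalization. Single genes gained a call without 1 tumour, namely Actb without inflamed tumour 2 (limma adjusted p = 0.0419), Ano1 without desert tumour 1 (0.0114), Cdh5 and Col1a1 without inflamed tumour 4 (0.0296 and 0.0279) and Col1a1 without desert tumour 5 (0.0422). With a mean FPKM of at least 5 fewer genes of each list were tested. The cause of the other changes was not tested. Depth limits Cnn1, Tagln and Myocd in desert tumours, where they rest on at most 12 reads per library. It also limits Actg2 (4 to 42 reads) and Lmod1 (10 to 22 reads) there.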
